A study of Mus musculus with 12 samples.

Results

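Hbegf, Hs3st3b1, Elovl7, Enah and E330020D12Rik were chosen from these data as genes whose signal was higher after treatment in control cells and little or no higher in cells that lack Stat5a and Stat5b. They are 5 of 18193 genes in the deposited table, which held 19 of their probe sets among 45101, of which 2 belonged to Hbegf, 4 to Hs3st3b1, 6 to Elovl7, 6 to Enah and 1 to E330020D12Rik. A probe set is a group of short probes on the array that reports on 1 transcript or on a few related ones. The responses to treatment in control and in knockout cells, and the difference between them, chose the genes, so those values are given below as a description and without a test. A need for Stat5 was not shown by the test across the whole table, in which 0 of 21363 probe sets passed for a difference in response between the genotypes at an adjusted p under 0.05 and 549 (2.57%) had an unadjusted p under 0.05 (limma). Hence the genes are described by their pattern alone.

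RNA was measured on 12 single-color Affymetrix Mouse430_2 arrays in blood cells of mice with or without Stat5a and Stat5b, each either treated or left untreated. Both genotypes were measured with and without treatment, which made 4 groups of 3 arrays. The labels write the treatment as with or without "GMP", but where these letters stand in sample names they are on treated and untreated arrays alike. A plus or minus sign tells those arrays apart, so in these names the letters do not mark the treatment. The agent, its dose, its duration and the exact type of blood cell are therefore not settled. The title of the series concerns granulocyte formation under GM-CSF, a myeloid growth factor. The arrays fell on 3 dates, each with 1 array of every group. A control and a knockout response could therefore be read within an array date. On the middle of the 3 dates the treated knockout array carries another number tag in its title than the rest. The knockout pair of that date is thus known to share the array date only. Strain, age, the number of animals, how the genes were deleted and any Cre driver are not given in the sources used here, and separate animals are not named either. The p-values therefore cover the spread among these arrays alone, which may be technical.

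STAT5A and STAT5B are transcription factors that cytokine receptors activate through JAK kinases; they bind DNA as dimers at palindromic sites and are known in myeloid cells for carrying signals of GM-CSF. The protein products of the genes described here act in separate processes. HB-EGF is a ligand of the EGF receptor that is made as a membrane protein and cut free by metalloproteases, and it binds to heparan sulfate, a sugar chain on cell surfaces. Hs3st3b1 encodes a sulfotransferase that adds a rare sulfate group to heparan sulfate. ELOVL7 is an enzyme of the endoplasmic reticulum that lengthens long-chain fatty acids. Enah encodes Mena, an actin regulator of the Ena/VASP family found at the edges of moving cells. E330020D12Rik is annotated by RefSeq as a long non-coding RNA, and no role is given for it here.

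The cells carried blood cell transcripts on every array. All 12 of 12 hematopoietic markers exceeded an intensity of 70.5, the median of all values, on all 12 arrays, and Ptprc (CD45) lay between 5911 and 13434. Stat5a was at 833 to 1147 in untreated control cells and at 33.0 to 101 in untreated knockout cells, and Stat5b at 515 to 1531 and at 24.0 to 51.2. The arrays of date 2 stood apart. The ratio of the 3' to the 5' probe set of Actb, which rises when RNA is degraded, was 20.8 to 266 on date 2, highest on the control treated array, and 1.14 to 2.05 on the other dates. Values for the 5 genes without date 2 are given with the difference of responses below.

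Before the gene-by-gene account, the promoter letters of a known STAT5 target are shown as a yardstick. Cish encodes a feedback inhibitor of cytokine receptors, and its control response in these arrays was 4.10 ± 0.27 (log2, SE, limma, adjusted p = 1.55e-04). Of the 32851 RefSeq promoter windows of 300 bases (250 before and 50 after the start, build GRCm38.p6), 8.30% held the palindrome TTCNNNGAA to which STAT dimers are known to bind, read on both strands. The Cish window at chr9:107296409-107296708, plus strand, held it 2 times, at positions 1 and 12 counted from the start. The sequence is printed 5′ to 3′ with these matches in capitals.
Cish: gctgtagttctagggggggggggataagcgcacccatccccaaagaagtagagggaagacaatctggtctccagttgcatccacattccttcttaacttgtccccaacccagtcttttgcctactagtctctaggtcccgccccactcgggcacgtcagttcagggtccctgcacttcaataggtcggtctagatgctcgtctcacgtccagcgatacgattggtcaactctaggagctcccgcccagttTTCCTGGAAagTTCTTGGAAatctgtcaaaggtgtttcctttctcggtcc

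Windows were present in the promoter table for 4 of the 5 genes, and TTCNNNGAA was found in none of Hs3st3b1, Elovl7, Enah and E330020D12Rik. The same palindrome with 1 more base between its arms, found in 6.95% of all windows, and the AP-1 motif TGANTCA, found in 7.81%, were not among their letters either. The CCAAT box, found in 37.4% of all windows on either strand, was present 2 times in Hs3st3b1 and 1 time in E330020D12Rik. The missing match says only that these letters are not in these windows, and binding was not measured. The Hs3st3b1 window at chr11:63922235-63922534 and the E330020D12Rik window at chr1:153414184-153414483, both on the minus strand of GRCm38.p6, are shown because they are the ones of these 4 with a match; capitals mark CCAAT, or its reverse complement.
Hs3st3b1: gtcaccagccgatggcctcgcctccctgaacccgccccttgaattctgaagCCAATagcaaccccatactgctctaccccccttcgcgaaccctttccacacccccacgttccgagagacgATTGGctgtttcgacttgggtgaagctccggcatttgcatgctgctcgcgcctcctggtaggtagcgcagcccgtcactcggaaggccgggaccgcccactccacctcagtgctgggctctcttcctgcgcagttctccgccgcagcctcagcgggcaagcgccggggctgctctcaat
E330020D12Rik: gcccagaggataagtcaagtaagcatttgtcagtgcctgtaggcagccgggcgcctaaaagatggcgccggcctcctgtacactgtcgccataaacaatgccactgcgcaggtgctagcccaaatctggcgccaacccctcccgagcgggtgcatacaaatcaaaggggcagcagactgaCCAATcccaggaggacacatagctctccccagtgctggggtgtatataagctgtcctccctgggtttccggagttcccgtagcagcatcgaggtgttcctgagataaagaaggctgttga

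The matches lay 199 and 129 bases before the start of Hs3st3b1 and 70 bases before the start of E330020D12Rik. The 4 windows differed in base composition. The Enah window (chr1:182019931-182020230, minus strand) was 83.3% G and C with 49 CG dinucleotides, more than 99.0% of all windows. The Elovl7 window (chr13:108214154-108214453, plus strand) was 74.0% G and C with 30 CG dinucleotides. Hs3st3b1 had 63.7% and 23, and E330020D12Rik had 56.3% and 12, against medians of 52.7% and 7 over all windows.

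Hbegf, the EGF receptor ligand, had a mean intensity of 124 ± 30.5 (SD, n = 3) in control cells left untreated and 773 ± 434 (n = 3) in those that were treated. By date, probe set 1418350_at read 116, 97.8 and 157 in the former and 321, 811 and 1186 in the latter. In knockout cells it read 121, 107 and 136 without and 71.5, 51.7 and 170 with treatment. All 3 control treated arrays lay above the other 9, whose highest was 170. The treatment response was 2.36 ± 0.36 in control cells and -0.42 ± 0.36 in knockout cells on the log2(intensity + 13) scale (SE), a difference of -2.78 ± 0.52. The knockout array of date 3 was the exception among the knockout pairs, with 0.30 against -0.66 and -0.89 on dates 1 and 2. In a bulk sample, fewer cells that make a transcript and less of it per cell cannot be told apart, here or for the other genes.

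The other Hbegf probe set, 1418349_at, was dimmer. It read 56.4, 94.8 and 80.9 in untreated control cells and 178, 152 and 545 in treated ones. In knockout cells it read 43.7, 56.6 and 99.0 without and 42.3, 93.2 and 45.9 with treatment. Its control treated arrays were again the highest, but on date 2 the response was 0.61 in both genotypes.

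**Figure D1:**
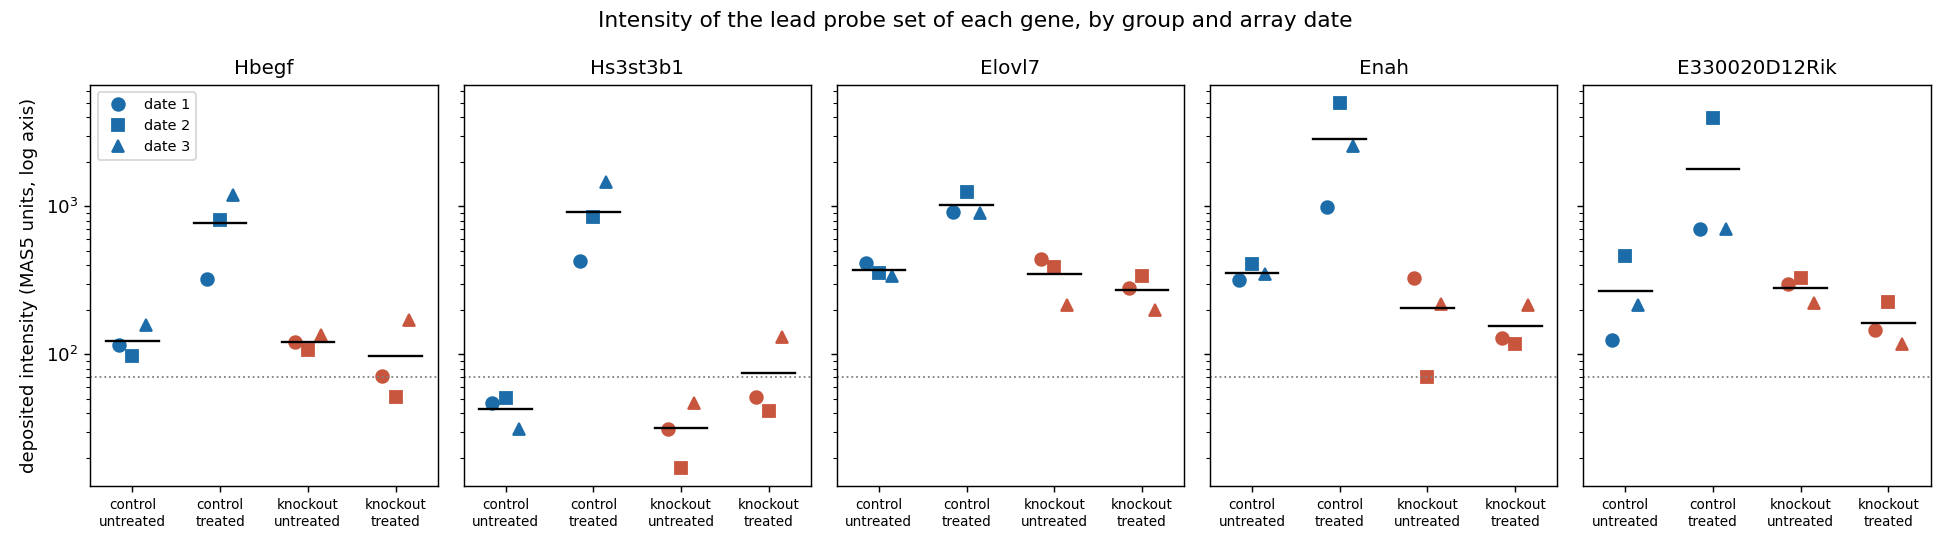
Deposited intensity (log axis) of the lead probe set of each gene in the 4 groups; circles, squares and triangles are dates 1, 2 and 3, black bars are group means and the dotted line is the intensity of 70.5 used as a filter. In each panel the 3 control treated arrays lie above the other 9; for Hbegf the lowest of them is at 321 and the highest other array at 170.

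The probe set above is the lead of its gene, meaning the set with the highest mean log2 value, with those ending in _x_at set aside. That mean covers all 12 arrays, so control treated arrays, which helped to choose the genes, also helped to choose the leads. The leads are given first below. Hs3st3b1, the heparan sulfate sulfotransferase, had the largest control response of the 5 leads. Probe set 1433977_at read 47.2, 50.4 and 31.4 in untreated control cells and 430, 850 and 1469 in treated ones on the 3 dates. In knockout cells it read 31.6, 17.2 and 46.6 without treatment and 51.9, 41.6 and 132 with treatment. All 3 control treated arrays lay above the other 9. Unlike the other leads it was higher after treatment on every date in the knockout too, by 0.54, 0.85 and 1.28 (log2). The responses were 3.90 ± 0.41 in control and 0.89 ± 0.41 in knockout cells, and their difference was -3.01 ± 0.58. All 6 untreated arrays were below the filter of 70.5, so the constant of 13 that was added before taking logarithms shortens both responses.

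The other 3 probe sets of Hs3st3b1 did not show this pattern. Set 1421331_at lay between 9.53 and 151 on the 12 arrays with a control response of 0.09 ± 0.41, and set 1421332_at between 46.9 and 134 with 0.24 ± 0.28. Neither had control treated arrays that cleared the other groups. The set 1442816_at stayed between 3.26 and 36.8 and was below the filter. The description of Hs3st3b1 thus rests on 1 of its 4 probe sets, and which transcripts the sets detect was not analysed here. Set 1433977_at had means of 43.0, 31.8 and 75.2 in control untreated, knockout untreated and knockout treated cells. Those of 1421332_at were 70.0, 66.2 and 60.5, so the control treated arrays helped to make 1433977_at the lead.

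Elovl7, the fatty acid elongase, had the smallest and most even control response among the leads. Probe set 1424097_at read 417, 356 and 336 in untreated control cells and 912, 1256 and 899 in treated ones. In the knockout it read 437, 389 and 215 without treatment and 280, 338 and 199 with treatment. The groups did not overlap, since the lowest control treated array was at 899 and the highest other at 437. The response was 1.42 ± 0.25 in control and -0.31 ± 0.25 in knockout cells, with a difference of -1.73 ± 0.35. On each date the control pair went up and the knockout pair went down.

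Of the other Elovl7 probe sets, 3 showed the same order. Set 1441891_x_at, whose suffix marks probes that may bind other transcripts, read 1056, 3114 and 1148 in control treated cells and at most 634 elsewhere. Set 1424098_at read 814, 422 and 558 in control treated cells and at most 281 elsewhere, and the dim set 1440354_at read 85.9, 343 and 92.9 against at most 56.1. These sets report on 1 gene and are no independent evidence of each other. In set 1440312_at the groups overlapped, with responses of 0.80 ± 0.45 in control and 0.25 ± 0.45 in knockout cells. The set 1441091_at, at most 121, was below the filter.

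Enah, the actin regulator Mena, had the largest standard error of the 5 leads. Probe set 1424800_at read 315.5, 407 and 347 in untreated control cells and 985, 4962 and 2563 in treated ones. In the knockout it read 329, 70.0 and 221 without treatment and 129, 118 and 217 with treatment. The control treated arrays lay apart from the rest, with a mean of 2837 ± 2003 (SD, n = 3). The responses were 2.67 ± 0.61 in control and -0.21 ± 0.61 in knockout cells, and their difference was -2.88 ± 0.86. By date the knockout response was -1.27, 0.66 and -0.02, while the difference from the control response was -2.87, -2.90 and -2.86. The knockout response was -0.96 without the untreated knockout array of date 2, and the control response was 1.91 without the treated control array of that date.

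Enah set 1424801_at gave the same order at a lower level, with 300, 244 and 465 in control treated cells and at most 182 elsewhere. In set 1442223_at the treated knockout cells were the lowest, at 1.22, 27.7 and 11.7, against 44.1, 71.1 and 26.7 in untreated knockout cells. Its control arrays read 36.6, 69.2 and 57.3 without and 66.1, 195 and 267 with treatment, so its responses had opposite signs on all 3 dates, with means of 1.34 ± 0.38 and -1.25 ± 0.38. Here only the control treated array of date 1 overlapped with the untreated ones. The sets 1421624_a_at, 1431162_a_at and 1455375_at, with highest values of 124, 20.6 and 82.0, were below the filter.

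E330020D12Rik, the non-coding RNA, had 1 probe set, 1444177_at. It read 124, 459 and 217 in untreated control cells and 703, 3940 and 697 in treated ones. In the knockout it read 297, 328 and 223 without treatment and 147, 224 and 118 with treatment. The treated knockout array was lower than the untreated one on every date, and the treated control array was higher. The responses were 2.36 ± 0.42 and -0.78 ± 0.42, with a difference of -3.14 ± 0.60. The high control array was that of date 2, which also had the highest Actb ratio of 266; without it the control response was 1.81.

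**Figure D2:**
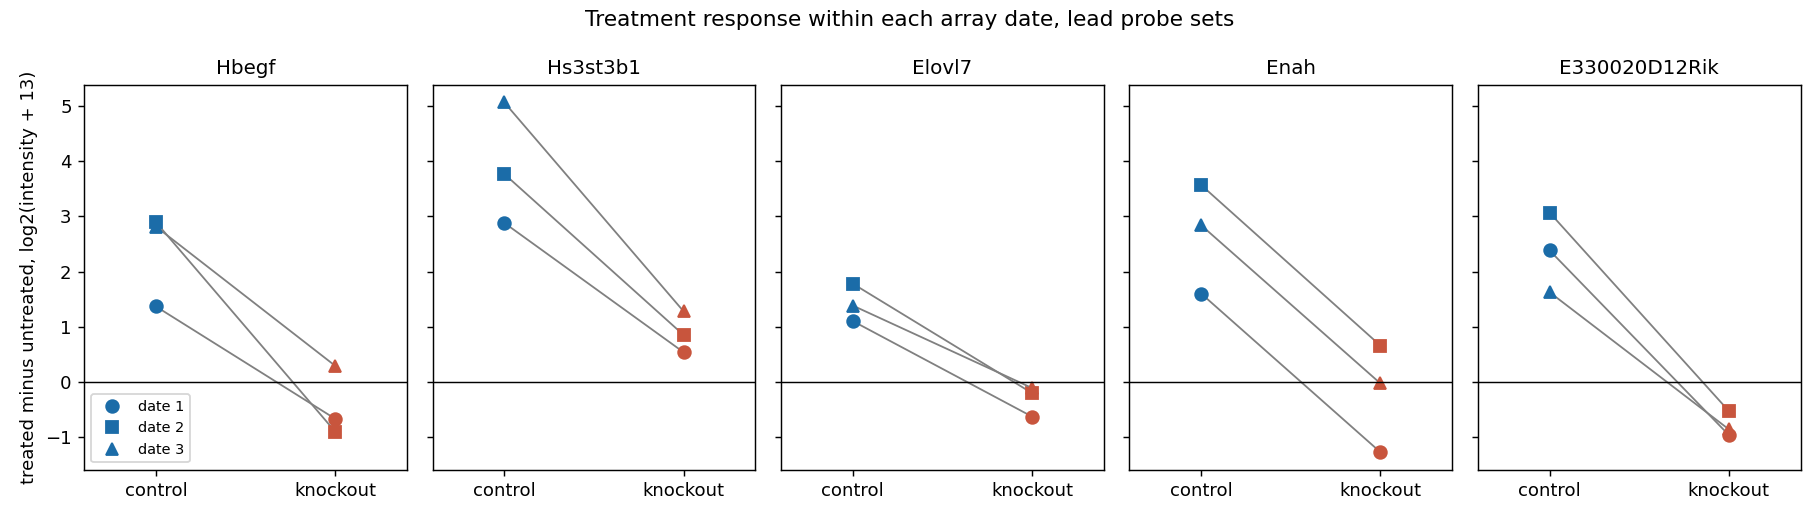
Treated minus untreated value within each array date, log2(intensity + 13), in control (blue) and knockout cells (red) for the lead probe sets; lines join the same date. Every line slopes downward, and knockout points lie above 0 on all dates for Hs3st3b1 only.

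Within each date the knockout response was below the control response for every lead probe set, which describes genes chosen for that difference. Leaving out date 2 moved the difference of responses to -2.28 for Hbegf, -3.06 for Hs3st3b1, -1.61 for Elovl7, -2.86 for Enah and -2.91 for E330020D12Rik. The part that RNA quality plays in the higher values of date 2 was not tested.

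Of the 19 probe sets, 14 exceeded 70.5 on at least 3 arrays and entered the fit. Set 1440354_at of Elovl7 passed on its 3 control treated arrays alone, and the Hs3st3b1 lead passed on 4 arrays of which 3 were control treated. Enah set 1442223_at passed on 3 arrays and Hs3st3b1 set 1421332_at on 4, of which 2 each were control treated. The following counts apply the threshold used for all probe sets to contrasts that chose the genes, so they describe the choice and test nothing. In control cells 7 of the 14 lay past it with higher values after treatment, beside 3.16% of all probe sets tested. In knockout cells 0 of 14 lay past it, beside 8.66% in either direction, and for the difference of responses 0 of 14, beside 0% of all. In 10 of 14 the control treated arrays lay above the other 9, beside 0.899% of all. With treatment, 5 of 14, from 4 of the genes, were lower in knockout than in control cells, beside 0.0609% of all.

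**Figure D3:**
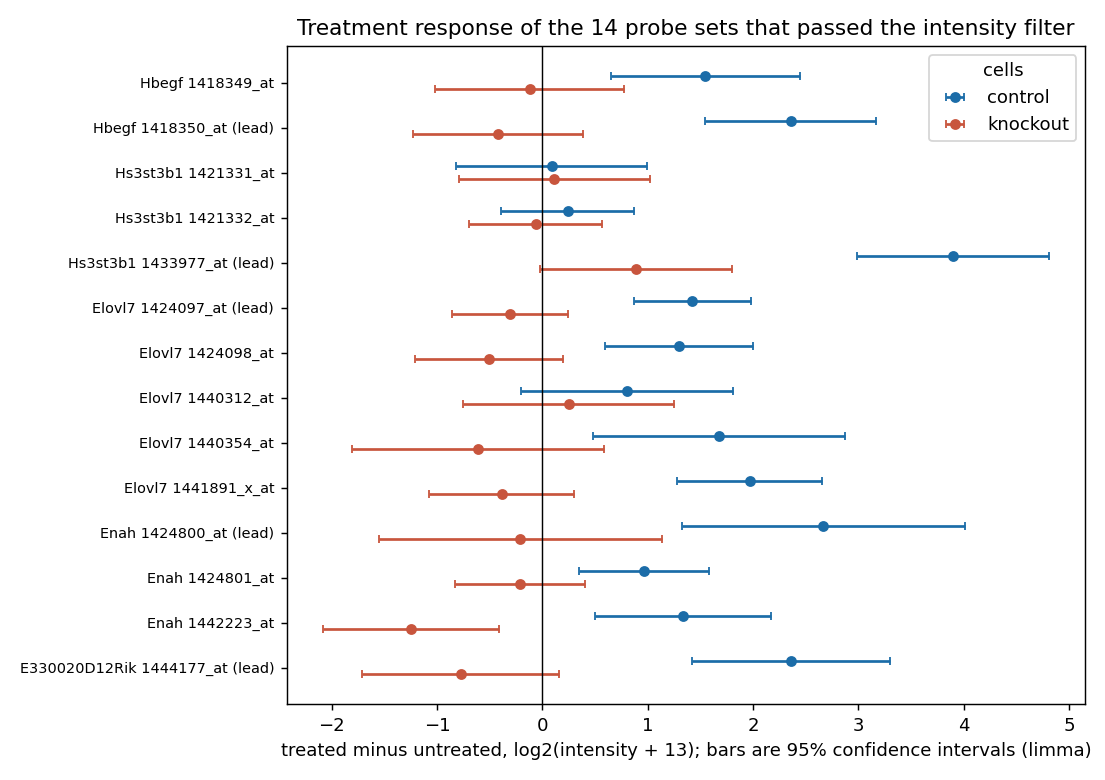
Treatment response of the 14 member probe sets that passed the intensity filter, log2(intensity + 13), in control (blue) and knockout cells (red); bars are 95% confidence intervals. The dim Hs3st3b1 sets 1421331_at and 1421332_at lie near 0 in both genotypes, and the lead set 1433977_at lies at 3.90 in control cells.

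In control cells 676 probe sets were higher with treatment, of which 507 were also called higher in knockout cells, and the median difference of responses among the 676 was -0.02. The estimate in knockout cells was below 0 and not called for 11 of the 676. Of these, 6 belonged to the genes described here (3 of Elovl7 and 1 each of Hbegf, Enah and E330020D12Rik). The other 5, named after their values were seen, were Tmem215 (2.13 in control and -0.30 in knockout cells), Thy1 (1.47 and -0.38), Lyrm1 (1.51 and -0.05), Riok1 (1.20 and -0.05) and Rint1 (0.996 and -0.06). The known STAT5 target Socs2, a cytokine feedback inhibitor that is no member, had 5.01 in control and 0.39 in knockout cells for the more responsive of its called probe sets. Its difference of -4.63 had the lowest adjusted p of all, 0.0713.

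Ranked by the most negative difference among the 676, E330020D12Rik was at place 5, Hs3st3b1 at 6, Enah at 8, Hbegf at 10 and the 3 Elovl7 sets at 14, 20 and 21. Places 1 and 3 were held by Socs2, place 2 by Batf3 and place 12 by Cish. No gene passed all of the tests that would name the pattern (higher in control cells, a smaller response in the knockout, no call in the knockout), since none passed the second.

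Without treatment, knockout and control cells were compared by a test, because the rule did not use that contrast itself. The contrast shares the untreated arrays with those that were used, so the test is not independent of the choice. Choosing a high control and a low knockout response favours low untreated control and high untreated knockout values, which pushes this contrast upward. The Hs3st3b1 lead and Elovl7 set 1440354_at had 0 untreated arrays above 70.5 and entered the fit through treated ones, so they are set aside here, which leaves 12 sets. Among these 12, Enah set 1442223_at and Hs3st3b1 set 1421332_at also needed control treated arrays to reach 3 arrays above 70.5. Both are kept in the counts below, with estimates of -0.20 and -0.11. In limma 0 of 12 passed at an adjusted p under 0.05, beside 0.00936% of all, namely Stat5a and Stat5b. An unadjusted p under 0.05 was found for 0 of 12, beside 2.43% of all, and the lowest was 0.14, for Enah. Knockout minus control was -0.01 for Hbegf (95% confidence interval -0.82 to 0.80), -0.14 for Elovl7 (-0.69 to 0.41) and 0.25 for E330020D12Rik (-0.69 to 1.19). It was -0.97 for Enah (-2.31 to 0.38), and -0.22 without the untreated knockout array of date 2, which read 70.0. For the Hs3st3b1 lead the estimate of -0.36 (-1.27 to 0.55) compares values of 17.2 to 50.4, all below the filter, and was near 0 without date 2. The estimate was below 0 for 11 of the 12 sets, beside 53.7% of all, with several sets from 1 gene. Among the leads, the intervals of Enah, E330020D12Rik and Hs3st3b1 reach past a 2-fold difference, and those of Hbegf and Elovl7 do not. Other sets of these last genes do reach past it. They are Hbegf set 1418349_at (-1.12 to 0.68) and Elovl7 sets 1424098_at (-1.02 to 0.39) and 1440312_at (-1.59 to 0.42). Each of the genes thus has a probe set whose interval includes a 2-fold difference.

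**Figure D4:**
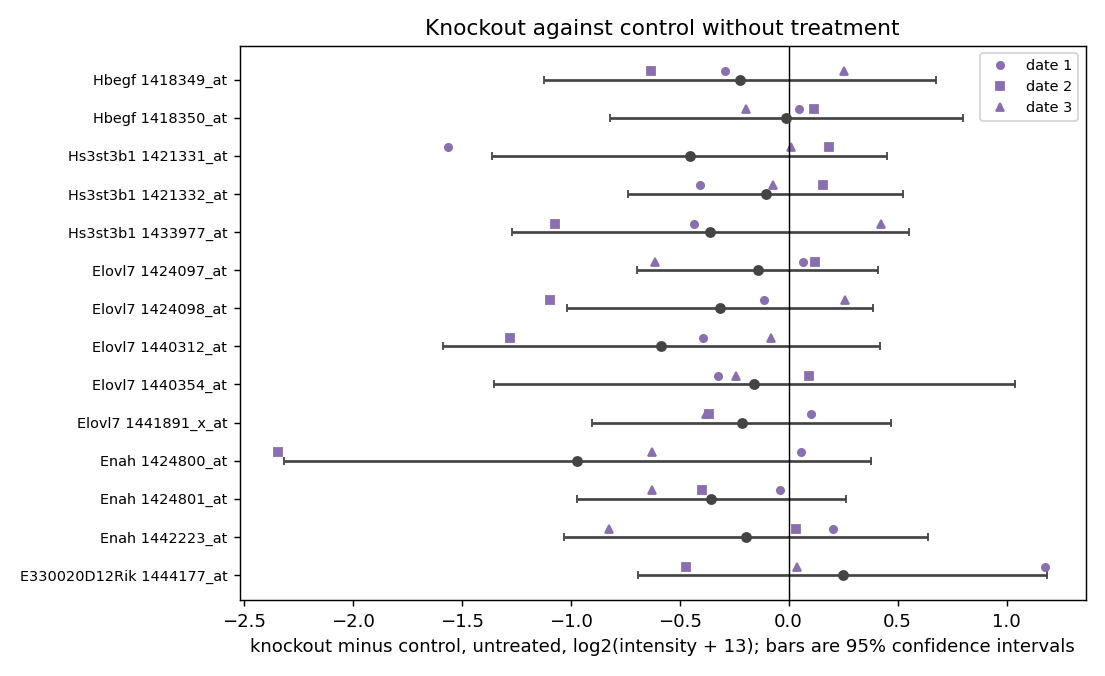
Knockout minus control without treatment for the 14 member probe sets, log2(intensity + 13); dark points are estimates with 95% confidence intervals and small symbols are the 3 dates. All 14 intervals include 0, and the widest spread between dates is that of Enah set 1424800_at, from 0.06 on date 1 to -2.34 on date 2.

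Around HB-EGF, Errfi1 and Adam8 rose in both genotypes. Among its ligand family 6 other genes were tested and 0 changed in either genotype (for all genes with 1 probe set each, 3.39% were higher and 1.77% lower in control cells, and 5.87% higher and 3.45% lower in knockout cells). Of 7 receptor and feedback genes 1 rose in both genotypes: Errfi1, a feedback inhibitor of the EGF receptor, by 2.84 ± 0.49 in control and 1.91 ± 0.49 in knockout cells (limma, adjusted p = 0.0118 and 0.0391). Egfr itself had responses of 0.25 ± 0.28 and -0.10 ± 0.28. Of 12 shedding and partner genes 2 rose in control cells, Adam8 by 3.14 ± 0.53 and Adam9 by 1.45 ± 0.30, and 2 in knockout cells, Adam8 by 4.62 ± 0.53 and Adam17 by 1.24 ± 0.27. Adam17 encodes the main sheddase of EGF receptor ligands, and its control response of 0.62 ± 0.27 did not pass. The knockout response of Adam9, 0.97 ± 0.30, did not pass either (limma, adjusted p = 0.0785). Without date 2 the control response of Adam17 and the knockout response of Adam9 were both called (adjusted p = 0.0413 and 0.0446). The control call of Adam8 was lost without the untreated control array of date 3 (adjusted p = 0.0613), that of Errfi1 without either of the untreated control arrays of dates 2 and 3 or the treated one of date 3 (at most 0.0667). Without 1 array the calls of Adam9 in control cells and of Adam17 and Errfi1 in knockout cells were lost in 5, 5 and 6 of 12 fits (adjusted p at most 0.134, 0.0907 and 0.164).

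Among genes of heparan sulfate, on which Hs3st3b1 acts, Sdc4 and Cd44 rose in both genotypes. The counts below stand beside the same shares of all genes as for the HB-EGF lists. Of 17 chain synthesis genes 0 were called in control cells and 1, Ugdh, fell in knockout cells (-0.91 ± 0.24), a call that was lost in 10 of 12 fits without 1 array. The control response of Ugdh was -0.53 ± 0.24. Of 5 other O-sulfation and editing genes 0 changed in either genotype. The close paralog Hs3st3a1 stayed between 2.40 and 14.6 on all arrays, below the filter. Of 11 core proteins 2 rose in both genotypes. Sdc4, a heparan sulfate carrier, rose by 4.16 ± 0.61 in control and 4.40 ± 0.61 in knockout cells, and the adhesion receptor Cd44 by 0.97 ± 0.20 and 1.25 ± 0.20, of which the control call was lost in 5 of 12 such fits (adjusted p at most 0.113). The median control response was 0.05 for the core proteins and -0.09 for chain synthesis, against -0.04 over all genes.

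The fatty acid elongation machinery around Elovl7 gave no call in either genotype, 0 of 10 genes. Elovl1, Elovl5 and Elovl6 had control responses of -0.45 ± 0.52, -0.42 ± 0.27 and -0.56 ± 0.24, and knockout responses of -0.08, -0.31 and -0.70. The list median was -0.44 in control and -0.21 in knockout cells, against -0.04 and -0.02 over all genes. Of 12 genes of synthesis and desaturation 0 were called in control cells. In knockout cells the desaturase-like gene Fads3 rose by 3.09 ± 0.62 and Fads6 fell by 1.27 ± 0.29. The Fads3 rise was 4.50 on date 2 against 1.59 and 3.18 on the others, and its call was lost without any 1 of the untreated or treated knockout arrays of dates 2 and 3 (adjusted p at most 0.0765). That of Fads6 was lost in 5 of 12 such fits (at most 0.0921). In control cells the responses of Fads3 and Fads6 were 1.32 ± 0.62 and -1.10 ± 0.29 (limma, adjusted p = 0.263 and 0.0611). Without date 2 both control responses were called (0.0333 and 0.0302), so these genes are not shown to change in knockout cells alone.

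In the Ena/VASP family, Vasp had responses of 0.99 ± 0.38 in control and 1.03 ± 0.38 in knockout cells and Evl of -0.82 ± 0.30 and 0.07 ± 0.30, none of which passed (limma). Vasp was at 79.9 to 562 on date 2 and at 1639 to 5192 on the others. Without date 2 it was called higher in both genotypes (limma, adjusted p = 0.0289 in control and 0.0497 in knockout cells). Among 13 relatives and partners of Enah, 1 rose in control cells and 4 in knockout cells. Tes, a focal adhesion protein that binds Mena, rose in both, by 1.95 ± 0.21 and 1.49 ± 0.21. The adaptor Fyb (1.87 ± 0.36), the adhesion protein Vcl (0.99 ± 0.23) and Abi1 (0.81 ± 0.21) were called in knockout cells. Their control responses of 0.47 ± 0.36, 0.44 ± 0.23 and 0.19 ± 0.21 were not called. The calls of Fyb, Vcl and Abi1 were lost in 3, 6 and 11 of 12 fits without 1 array (adjusted p at most 0.0588, 0.121 and 0.16). Of 30 actin assembly genes 1 rose and 1 fell in both genotypes: the formin Fmnl2 by 2.53 ± 0.41 and 1.98 ± 0.41, and the formin Diaph2 with -0.85 ± 0.20 and -0.77 ± 0.20, a call lost in 11 of 12 such fits. The Fmnl2 call was lost without the untreated control array of date 3 in control cells (0.0548) and without the treated knockout array of date 2 or 3 in knockout cells (0.0696 and 0.0771).

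Among 24 STAT5 and cytokine feedback genes 6 rose in control and 6 in knockout cells. Cdkn1a, a cell cycle inhibitor, rose by 3.51 ± 0.33 in control and 3.58 ± 0.33 in knockout cells, and Spred1, a MAPK inhibitor, by 2.04 ± 0.23 and 2.32 ± 0.23. Cish rose by 4.10 ± 0.27 and 1.58 ± 0.27, with a difference of -2.53 ± 0.38 (adjusted p = 0.351). Bcl6, a transcriptional repressor, rose in knockout cells by 2.19 ± 0.33 and had 0.59 ± 0.33 in control cells. No gene of these 10 process lists or of the STAT5 target list was called for the difference of responses (0 at an adjusted p under 0.05).

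**Figure D5:**
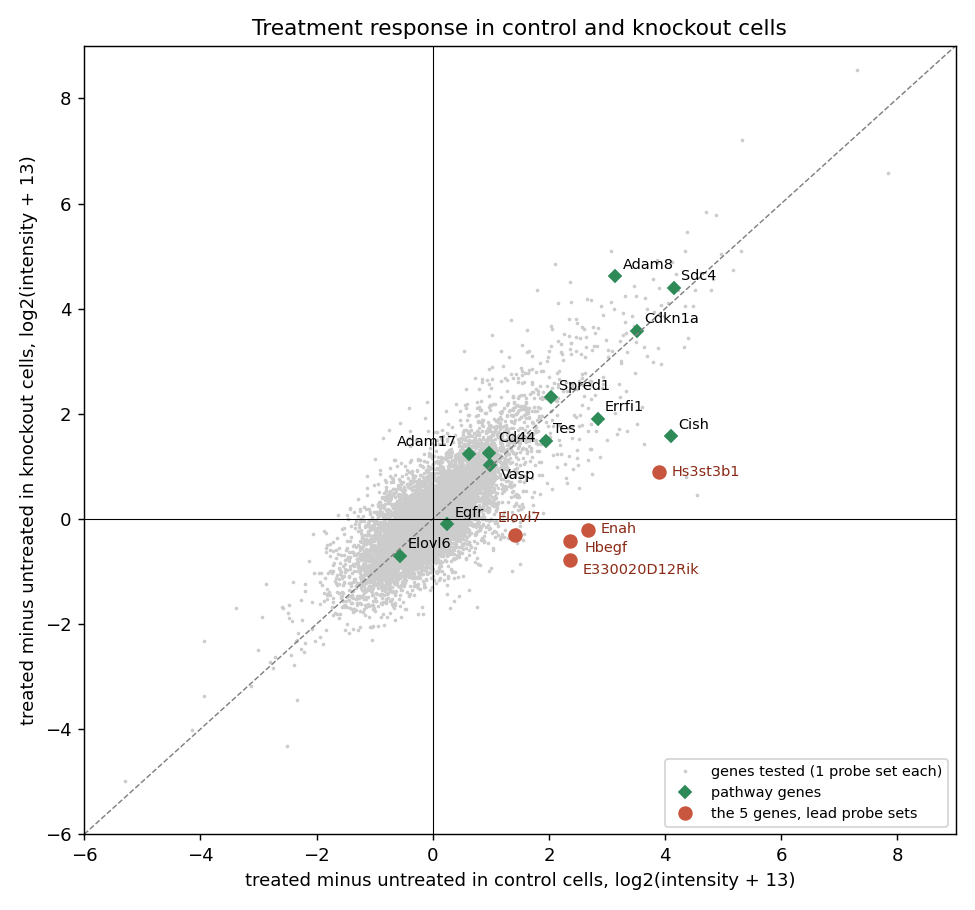
Treatment response in control cells against that in knockout cells, log2(intensity + 13), for 11815 genes with 1 probe set each (grey), 12 genes of the pathway lists (green) and the 5 genes (red); the dashed line marks equal responses. The 5 genes lie below the line, Hs3st3b1 at 3.90 and 0.89, while Sdc4 and Cdkn1a lie close to it.

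The nearest annotated genes on the chromosome gave no call in the main fit, beside the same shares of all genes as for the HB-EGF lists. Of the 20 neighbours, 7 had a probe set with 1 symbol and 6 were bright enough to test. Cystm1 beside Hbegf had responses of 2.71 ± 0.78 in control and 1.33 ± 0.78 in knockout cells (adjusted p = 0.0762 and 0.323), from values of 10.3 to 22.9 in control untreated cells. Shcbp1l beside E330020D12Rik had 1.21 ± 0.35 and 0.08 ± 0.35, with 118 to 208 in control treated cells and at most 84.3 elsewhere (adjusted p = 0.0754 in control cells). Control treated arrays lay above the other 9 in 0.899% of all probe sets tested. Some alternative fits gave calls (limma). Cystm1 was called in control cells without the treated control array of date 1 (adjusted p = 0.0309) and in knockout cells without date 2 (0.0462). Shcbp1l was called in control cells without date 2 (0.048). Pfdn1, Cox10, Ercc8 and Lbr had control responses between -0.36 and 0.07.

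Across the 12 arrays, after removing the mean of each date, the lead probe sets of the 5 genes followed each other with Pearson correlations of 0.84 (Hs3st3b1 and E330020D12Rik) to 0.96 (Hbegf and Elovl7). These correlations are a description of genes chosen for a shared pattern, over arrays that share groups and dates. The genes most like Hbegf were Clec7a (0.97), a receptor for fungal beta-glucans, Elovl7 (0.96) and Mpp3 (0.95). Those most like Hs3st3b1 were the chemokine gene Ccl6 (0.98), Dmxl2 (0.97) and Eps8 (0.96), an EGF receptor substrate that binds actin. Clec7a (0.93) and Naaa (0.92) followed Hbegf in likeness to Elovl7, and Clec7a (0.94), Ubr1 (0.94) and Naaa (0.93) were most like Enah. For E330020D12Rik they were Stx7 (0.95), Plcxd2 (0.93) and Enah (0.93).

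Since these genes were picked for following the leads over the same arrays, their responses are a description and were not tested. In control and knockout cells they were 1.73 ± 0.31 and 0.13 ± 0.31 for Ccl6, 1.44 ± 0.25 and 0.47 ± 0.25 for Dmxl2, and 3.64 ± 0.47 and 1.42 ± 0.47 for Eps8 (log2, SE). Clec7a read 2081, 3277 and 3211 in untreated and 3041, 10047 and 7515 in treated control cells, with responses of 1.13 ± 0.29 and -0.13 ± 0.29. Its treated control array of date 1 overlapped with other groups, and those of dates 2 and 3 did not. For Mpp3, Naaa, Ubr1, Stx7 and Plcxd2 the control responses ran from 0.28 to 1.10 and the knockout responses from -0.21 to 0.04.

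Markers of other blood cells were read beside these results. Of the T and NK list, the summed intensity of 8 genes was 272 to 871 in control treated cells, against 190 to 238, 129 to 385 and 173 to 238 in control untreated, knockout untreated and knockout treated cells. Its 1 called gene was Thy1, at 227, 532 and 147 in control treated cells and at most 119 elsewhere. Cd3e, Gzma and Cd8a exceeded 70.5 on 1 array each, with highest values of 136, 98.2 and 71.3. Cd3d, Cd3g, Cd4 and Ncr1 stayed below 70.5 on all 12 arrays. The summed macrophage markers, 11 genes led by Csf1r, were at 12456 to 43050 in control treated and 15738 to 35178 in knockout treated cells. Csf1r, Cx3cr1, Adgre1 (235 to 848) and Cd68 (298 to 1323) exceeded 70.5 on all 12 arrays. Mrc1, Msr1 and Mertk did so on 5, 4 and 1 arrays, and Marco, C1qa, C1qb and C1qc on none. Cx3cr1 rose in knockout cells, by 2.22 ± 0.34 (adjusted p = 0.00455), from 520 to 919 up to 3187 to 3762, and was at 503 to 1193 in treated control cells. The 7 B lineage genes summed to 465 to 541 in control treated and 415 to 785 in knockout treated cells, and the sums of erythroid, megakaryocyte, mast cell and stromal markers overlapped between these groups. The part of other cell types in the values of the 5 genes was not tested.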

How the data were processed

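The authors deposited, for each of 45101 probe sets and 12 arrays, an intensity on a linear scale. The submitters' processing notes name MAS5; its version is not given in the sources used here. Trimmed means of the arrays ran from 500.003 to 500.004, which shows a common scaling. Precision is limited by having 3 arrays a group. GEO's platform annotation gave the names: 34945 had 1 gene symbol, 932 had several, 9160 had none and 64 were controls. The gene identifiers of 34741 were found in a RefSeq table (GRCm38.p6), and 0 symbols changed.

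The 21363 probe sets with 1 symbol and an intensity above 70.5495 (the overall median) on 3 or more arrays were tested with limma 3.58.1 in R 4.3.3 on log2(intensity + 13), 13 being the 20th percentile. A fold change of a dim probe set is understated on this scale. The fit held 4 groups and the date as a block, with Benjamini-Hochberg adjustment across every probe set tested (threshold 0.05). The half-width of the 95% confidence interval had a median of 0.684, and of 0.967 for the difference of responses. The fit was tested on simulated data. Plots used matplotlib 3.10.9 (Python 3.11.15).

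Dates from the sample titles pair the arrays. On date 2 the title of the treated knockout array carries another number tag than the other 3, whose meaning is not stated. The knockout responses given for date 2 therefore pair arrays by array date alone, and whether their samples belong together is not known. Deviations from the group means correlated at 0.367 to 0.75 in the 18 same-date pairs and at -0.68 to 0.435 in the 36 others. Alternatives left out the block, the filter, date 2 or 1 array, or altered the constant, the scaling and the array weights; the closing section gives their effect. The comparison of knockout with control under treatment was added after the values had been seen.

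The members and the gene lists were chosen with earlier results of these data known. Genes named are all member probe sets, at most 4 genes of a list past the threshold in a comparison, a fixed set of paralogs and partners, the 2 nearest annotated genes on either side, and the 3 genes with the highest correlation to each member. Promoter sequences are those of RefSeq, searched for motifs on both strands.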

Additional observations from a re-analysis of the deposited data

Results flagged for a closer look

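Opposite responses in the genotypes were seen on all 3 dates for 5 probe sets, each higher after treatment in every control pair and lower after treatment in every knockout pair. The knockout response minus the control response, on the log2(intensity + 13) scale, was -1.732 for Elovl7 1424097_at, -2.293 for Elovl7 1440354_at, -2.582 for Enah 1442223_at and -3.135 for E330020D12Rik 1444177_at. For Plcxd2, a gene correlated with E330020D12Rik, it was -1.02, with control pairs at 0.85, 1.14 and 0.44 and knockout pairs at -0.27, -0.11 and -0.25. The first 4 belong to genes chosen for this difference, so it was not tested for them, and it was not tested for Plcxd2 either, which was picked for its correlation over the same arrays. The sets Elovl7 1440354_at and Enah 1442223_at are dim, with treated knockout values of 3.05 to 26.8 and 1.22 to 27.7.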

How the results depend on the processing

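The number of probe sets called depended strongly on the settings. The difference of responses stayed negative for the 5 lead probe sets in every fit run. The genes were chosen for that difference on these same arrays, which favours a kept sign, so this is a description and no support. In control cells 1004 were called, against 172 without the replicate block, 548 without the filter, 3587 with array weights and 264 to 1219 in the 12 fits without 1 array. In knockout cells these were 1849, 343, 1045, 3578 and 572 to 2550. For the difference of responses 0 were called, against 2 with a constant of 50 (both Socs2), 3 with array weights (Socs2 and Cish) and 0 to 1 without 1 array (Socs2, without the treated control array of date 1). Estimation of the array weights stopped before it converged. Knockout against control without treatment gave 2 calls, 1 without the replicate block, 0 with a constant of 1, 0 without the filter and 0 to 2 without 1 array. Without 1 array the Stat5a and Stat5b calls were lost in 10 and 11 of 12 fits (adjusted p at most 0.384). The causes were not tested.

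The difference of responses lay between -3.253 and -2.475 for Hbegf without 1 array, between -3.437 and -2.49 for Hs3st3b1, -1.917 and -1.557 for Elovl7, -3.629 and -2.117 for Enah, and -3.535 and -2.585 for E330020D12Rik. Without date 2 that of Hbegf was -2.275. The Enah extremes came without the untreated knockout and the treated control array of date 2, and the weakest E330020D12Rik value without the latter. Of 36 called values of other named genes, 22 lost the call without the replicate block. Untreated differences of Hbegf, Elovl7 and E330020D12Rik, none called, had the opposite sign in 4, 1 and 2 of 21 alternatives (adjusted p 0.8 or more). That of Enah ranged from -1.67 (without the untreated knockout array of date 1) to -0.20 (array weights), and that of Hs3st3b1 from -0.88 (without the untreated control array of date 3) to -0.0036 (without date 2).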
